A study of Mus musculus with 11 samples.

Results

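The transcriptome of untreated mouse macrophages was described from the 7 control libraries of a series of 11 RNA-seq libraries. A library was taken where its label gives bone marrow-derived macrophages with the treatment control. The other 4 libraries, of cells given the protein CYR61, were not used here, and no comparison between groups was made. All 7 control libraries came from C57BL/6J mice of 2 to 5 months, whose marrow cells were cultured for 5 to 6 days in medium with 10% fetal bovine serum and 10% CMG-conditioned medium, a medium commonly used as a source of the macrophage growth factor M-CSF. The differentiated cells were then kept in medium with 2% CMG-conditioned medium, and the control cells received 0.00 µg/ml CYR61 over the 24 h of the experiment. The labels name no vehicle, give no sex, and do not say whether the 7 libraries came from separate mice or cultures. The spread between them may therefore be technical.

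Macrophages are phagocytes that clear dead cells, debris and microbes. Marrow progenitors become macrophages under M-CSF, which acts through its receptor, the product of Csf1r, and under transcription factors such as PU.1, encoded by Spi1. A resting macrophage carries a large lysosomal system and many surface receptors for microbes, antibodies, lipoproteins and cytokines. Most inflammatory cytokines are made after a stimulus such as lipopolysaccharide or interferon gamma.

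The libraries held 14912123 to 21047654 counts each, 129329045 in all. Ribosomal RNA had been removed enzymatically and cDNA was made with random primers, so RNAs without a poly(A) tail were kept. Levels are given as CPM (counts-per-million, with library sizes scaled by edgeR's TMM factors over the 7 libraries), as mean ± SD (n = 7). CPM ranks genes by their share of the reads, which grows with transcript length. Some levels of different genes are therefore compared as CPM per kb of their longest annotated transcript. Ranks by CPM and counts of genes above a CPM level are not corrected for length. The length used matters, and values with the median annotated transcript are given for some of the comparisons. A gene was counted as expressed at a mean of at least 1 CPM. By this rule 11172 of 21936 protein-coding genes, or 50.9%, were expressed, and 8390 reached 10 CPM. Counts of list members below are to be read against these shares. For a gene with no count in the 7 libraries, 3 counts over the 7 libraries, or 0.0232 CPM, is the level that a count of 0 allows, for counting error only. No pair of libraries agreed within sampling noise (chi-square per gene 2.92 to 10.9), so each was kept as a library of its own.

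The cells had the expression profile of macrophages. Lyz2, the lysozyme of myeloid cells, lay at 16717, 17425 and 18082 CPM (lowest, median and highest library), with a mean of 17419 ± 501 CPM. Among all protein-coding genes it ranked 1 both by CPM and by CPM per kb. Csf1r, the M-CSF receptor, ranged from 2908 to 3142 CPM with a mean of 3022 ± 92.2. The adhesion receptor F4/80, encoded by Adgre1, stood at 702, 745 and 796 CPM and averaged 751 ± 33.8. Itgam, the CD11b chain of complement receptor 3, stood at 499, 535 and 586 CPM and averaged 542 ± 27.6. The libraries lay close together, with a highest over lowest value of 1.17 for Itgam and 1.08 for Lyz2. Every library held all 4 of these macrophage markers.

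All 20 genes of a macrophage identity list exceeded 10 CPM and 18 of them exceeded 100 CPM. The gene lists here and below were chosen with earlier results of these data known. A list with all members present may therefore reflect the choice of members, and supports nothing by itself. Their summed level was 36461 ± 641 CPM and ranged from 35371 to 37185 CPM. Per kb of transcript, Lgals3, a galactose-binding lectin, reached 1680.04 CPM per kb, Cd68, a lysosomal glycoprotein of phagocytes, 991, and Tyrobp, the signalling adaptor of Trem2, 796. With the median transcript length these stood at 2775, 1210 and 826. Laptm5, another member, went from 665 to 4565 and so passed them. The lipid and apoptotic cell receptor Trem2 averaged 793 ± 47.5 CPM, and Mpeg1, a pore-forming protein of phagocytes, 3141 ± 57.4 CPM. The 2 members under 100 CPM were the scavenger receptor Msr1 at 77.1 ± 7.65 CPM and Aif1, also known as Iba1, at 17.1 ± 1.84 CPM.

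The listed transcription factors of the lineage were all present, in a list chosen with earlier results known. Each of the 20 listed factors exceeded 10 CPM and 13 exceeded 100 CPM. Spi1, which encodes PU.1, lay at 286, 290.4 and 301 CPM and averaged 292 ± 5.18 CPM, and its level per kb of 144 was the highest of the 20 (with the median transcript length Zeb2 was first, at 527, and Spi1 next, at 505). Cebpb and Zeb2, a C/EBP factor and a zinc finger repressor that keeps macrophage identity, followed at 103 and 102 CPM per kb. Maf, which restrains self-renewal of macrophages, averaged 364 ± 32.4 CPM. The interferon regulatory factor Irf8 averaged 263 ± 6.46 CPM. The lipid-sensing nuclear receptors Pparg and Nr1h3 averaged 17.3 ± 1.10 and 11.8 ± 1.18 CPM.

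Promoters of the identity genes were searched for short motifs. RefSeq (GRCm38.p6) promoters were at hand for 13 of the 20 genes, and the 250 bases before the start site were read on both strands. The motif GAGGAA, the core of the purine-rich box bound by PU.1, occurred in 7 of 13, against 23.3% of 32851 promoters in the table. Other strings were searched too. AGAGGAA, which holds GAGGAA, was found in 2 of 13 (8.55% of all promoters), GAGGAAGT in 0 of 13 (2.44%), GGAAGTG in 1 of 13 (8.55%) and TATAAA in 1 of 13 (12.4%). The strings were chosen while the promoters were being read, so these counts are descriptions. The promoter of Itgam (chr7:128062390-128062639, plus strand) is shown because it belongs to a marker gene and holds GAGGAA 2 times, with the matches on either strand in capitals.
Itgam promoter: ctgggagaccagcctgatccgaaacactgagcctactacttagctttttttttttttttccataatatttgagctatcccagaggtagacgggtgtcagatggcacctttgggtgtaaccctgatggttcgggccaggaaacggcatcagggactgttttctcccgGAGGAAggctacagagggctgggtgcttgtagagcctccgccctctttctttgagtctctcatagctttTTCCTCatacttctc

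Most genes of other cell types were at or near 0. No member of the T and NK cell, mast cell and basophil, erythroid or stromal lists reached 1 CPM. Members at 1 CPM or more numbered 1 of 12 for neutrophils and their precursors, 3 of 8 for monocytes, 3 of 10 for dendritic cells, 1 of 9 for B cells, 1 of 6 for eosinophils and 2 of 7 for platelets. They numbered 5 of 10 for osteoclasts, 3 of 10 for endothelium, 1 of 6 each for adipocytes (Pparg) and osteoblasts (Runx2, 11.0 ± 1.67 CPM), and 2 of 8 for stem and progenitor cells, with Procr at 16.1 ± 1.68 CPM. Of 11 T and NK cell genes, 6 had no count (Cd3e, Cd3g, Cd8b1, Ncr1, Nkg7 and Trbc2) and the summed level of the list was 0.397 to 0.693 CPM. Erythroid genes summed to 0.587 to 1.41 CPM, stromal genes to 0.701 to 2.08 CPM, and mast cell and basophil genes to at most 0.220 CPM. In the B cell list, Pax5, Igkc and Ebf1 had no count, while Ighm, the immunoglobulin mu constant region, averaged 61.9 ± 4.24 CPM. Among granulocyte genes, Mpo and Ly6g had no count and S100a9 had 2 counts over the 7 libraries, whereas Mmp8, the neutrophil collagenase, averaged 43.5 ± 2.55 CPM. Monocyte genes were split: Ccr2, the receptor for Ccl2, averaged 44.0 ± 1.99 CPM and Spn 70.7 ± 2.55 CPM, but Ly6c2 averaged 0.0926 ± 0.0393 CPM and Plac8 had no count. For dendritic cells, Flt3 and Xcr1 averaged 0.0697 and 0.530 CPM, Ccr7 had no count, and Itgax averaged 30.4 ± 1.95 CPM. Vwf, the von Willebrand factor gene of endothelium and platelets, averaged 147 ± 5.27 CPM, while the endothelial genes Erg and Robo4 had no count and Cdh5 averaged 0.328 CPM. The osteoclast factor Nfatc1 and the proton pump subunit Atp6v0d2 averaged 135 ± 2.29 and 64.9 ± 3.72 CPM, and Calcr, a marker of mature osteoclasts, had no count. Whether rare other cells contributed to the members with counts was not tested, and in bulk libraries fewer cells of a type and less RNA per cell cannot be told apart.

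Of 55487 gene IDs, 27072 had a count in at least 1 library, 28415 had none, and 13414 were expressed at 1 CPM or more, 11172 of them protein-coding. Only 69 genes reached 1000 CPM, yet they held 31.4% of the counts. A further 1818 genes between 100 and 1000 CPM held 40.7%, 6791 between 10 and 100 CPM held 25.7%, and 4736 between 1 and 10 CPM held 1.87%. Ranked by mean CPM, the first 5 genes held 10% of all counts, the first 27 held 25%, and the first 479 held 50%. The first 100 genes held 34.1 ± 0.438% of a library's counts, with 33.7 to 34.8% over the libraries.

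**Figure D1:**
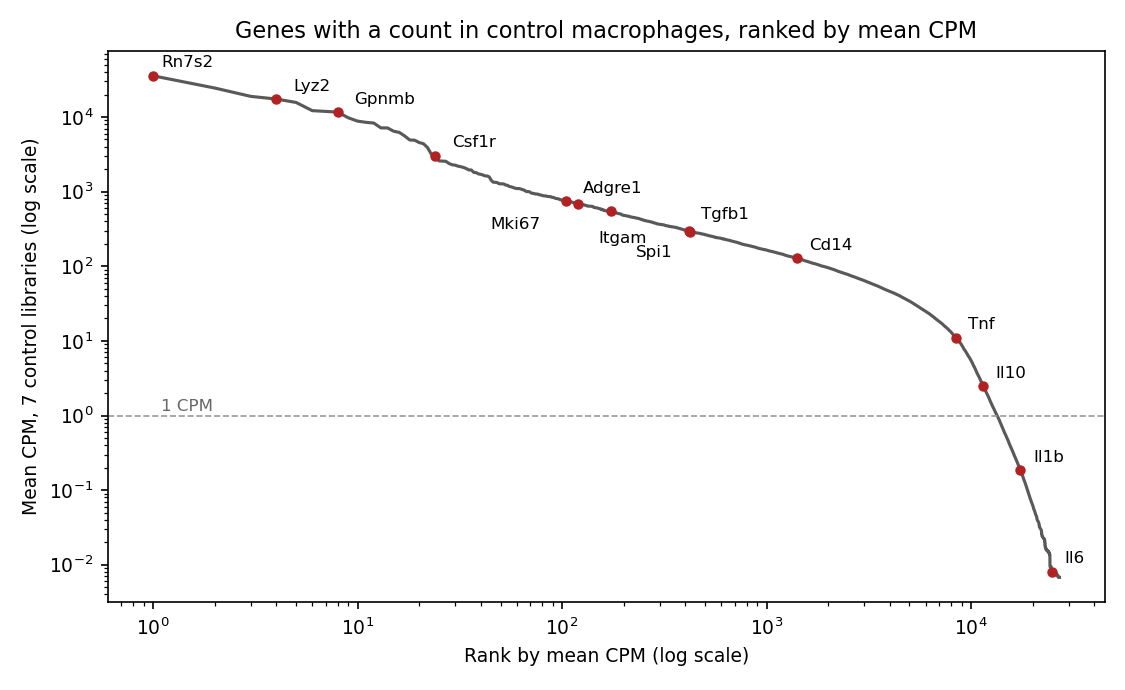
Mean CPM over the 7 control libraries (log axis) against the rank of a gene by mean CPM (log axis), with a dashed line at 1 CPM and selected genes as points. The line runs from Rn7s2 at 35664 CPM to genes with a single count, and crosses 1 CPM at rank 13414.

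The top of the CPM ranking was held by structural noncoding RNAs. Rn7s2 and Rn7s1, which encode the 7SL RNA of the signal recognition particle, ranked 1 and 2 at 35664 ± 1957 and 24489.9 ± 1652 CPM. The nuclear RNA Malat1 ranked 3 at 18926 ± 2135 CPM, and Rn7sk, the 7SK RNA that holds back the elongation factor P-TEFb, ranked 5 at 15691 ± 508 CPM. The RNA subunits of RNase P and RNase MRP, Rpph1 and Rmrp, averaged 2588 ± 199 and 1623 ± 183 CPM, and the paraspeckle RNA Neat1 1705 ± 106 CPM. In contrast, the Y RNAs Rny1 and Rny3 had 17 and 2 counts in all. Per kb the order differed: the 2 7SL genes stood at 118880 and 81633 CPM per kb, Rn7sk at 47404, and the long Malat1 at 2710.3, or at 31232 with its median transcript length.

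The 7SL genes show how reads of copies are divided. Their annotated transcripts of 300 bases are identical in GENCODE M21 (GRCm38), yet the deposited estimated counts gave Rn7s2 the higher value in each of the 7 libraries. Their sum was 60154 ± 3373 CPM.

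A second pair of near-identical rows ranked 6 and 7. Gm12896 and Gm12895, annotated as processed pseudogenes, averaged 12178 ± 2008 and 11886 ± 1949.9 CPM and ranged from 9672 to 15526 and 9383 to 15047 CPM. Their transcripts of 226 bases share a stretch of 224 bases, of which 71.9% are G or C, and the RNA the reads came from was not identified here. The full transcript of each is printed, because these 2 rows held most of the pseudogene counts.
Gm12896: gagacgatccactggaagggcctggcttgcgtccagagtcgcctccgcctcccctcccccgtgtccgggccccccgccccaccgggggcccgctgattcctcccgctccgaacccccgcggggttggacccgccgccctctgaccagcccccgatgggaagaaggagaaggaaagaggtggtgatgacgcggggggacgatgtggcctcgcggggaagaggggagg
Gm12895: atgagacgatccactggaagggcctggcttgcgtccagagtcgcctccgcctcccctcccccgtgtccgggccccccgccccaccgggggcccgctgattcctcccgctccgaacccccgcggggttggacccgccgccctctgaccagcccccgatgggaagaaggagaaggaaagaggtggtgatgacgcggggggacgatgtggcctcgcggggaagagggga

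Among protein-coding genes, the first 10 places per kb held lysozyme, both ferritin chains, Apoe, mt-Co1, 3 lysosomal genes, Gpnmb and Actb. Ftl1 and Fth1, the light and heavy chains of the iron store ferritin, stood at 9105 and 3468 CPM per kb, Apoe, the lipoprotein ligand secreted by macrophages, at 4416, and mt-Co1, a subunit of cytochrome oxidase, at 4179.6. The lysosomal protease genes Ctsd, Ctss and Ctsb stood at 3360.4, 2867 and 2061 CPM per kb (3719, 2867 and 7704 with the median transcript length). Psap, the precursor of the saposins that help degrade sphingolipids, stood at 3196, the glycoprotein Gpnmb at 3147, Actb, the cytoskeletal actin, at 2901, and the elongation factor Eef1a1 at 2744 CPM per kb. By CPM alone, Gpnmb ranked 8 at 11646 ± 388 CPM. Ahnak, a large scaffold protein, and Lrp1, an endocytic receptor, ranked 12 and 19 by CPM and held 459 and 329 CPM per kb of the longest transcript, but 6989 and 6336 per kb of the median one, so their place per kb depends on the length used. With the median transcript, 14 of the first 20 coding genes per kb stayed in that group. The first 10 places changed too: mt-Co1, Ctsd, Psap and Ctss moved to ranks 13, 14, 17 and 20, and Ctsb to rank 4.

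Lysosomal genes were expressed as a block. Of 30 genes for hydrolases and membrane proteins, 28 exceeded 1 CPM and 24 exceeded 100 CPM, and the list summed to 42261 ± 1744 CPM. Lamp1, a main protein of the lysosomal membrane, averaged 1812 ± 59.9 CPM, the acid lipase Lipa 1673 ± 63.3 CPM, and legumain, from Lgmn, 1272 ± 76.8 CPM. Some members are known from other cells: Ctsg, the granule protease of neutrophils, averaged 0.0992 CPM, and Ctsw, of killer lymphocytes, 0.661 CPM. Ctsk, the collagen-degrading protease of osteoclasts, averaged 20.6 ± 1.98 CPM.

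**Figure D2:**
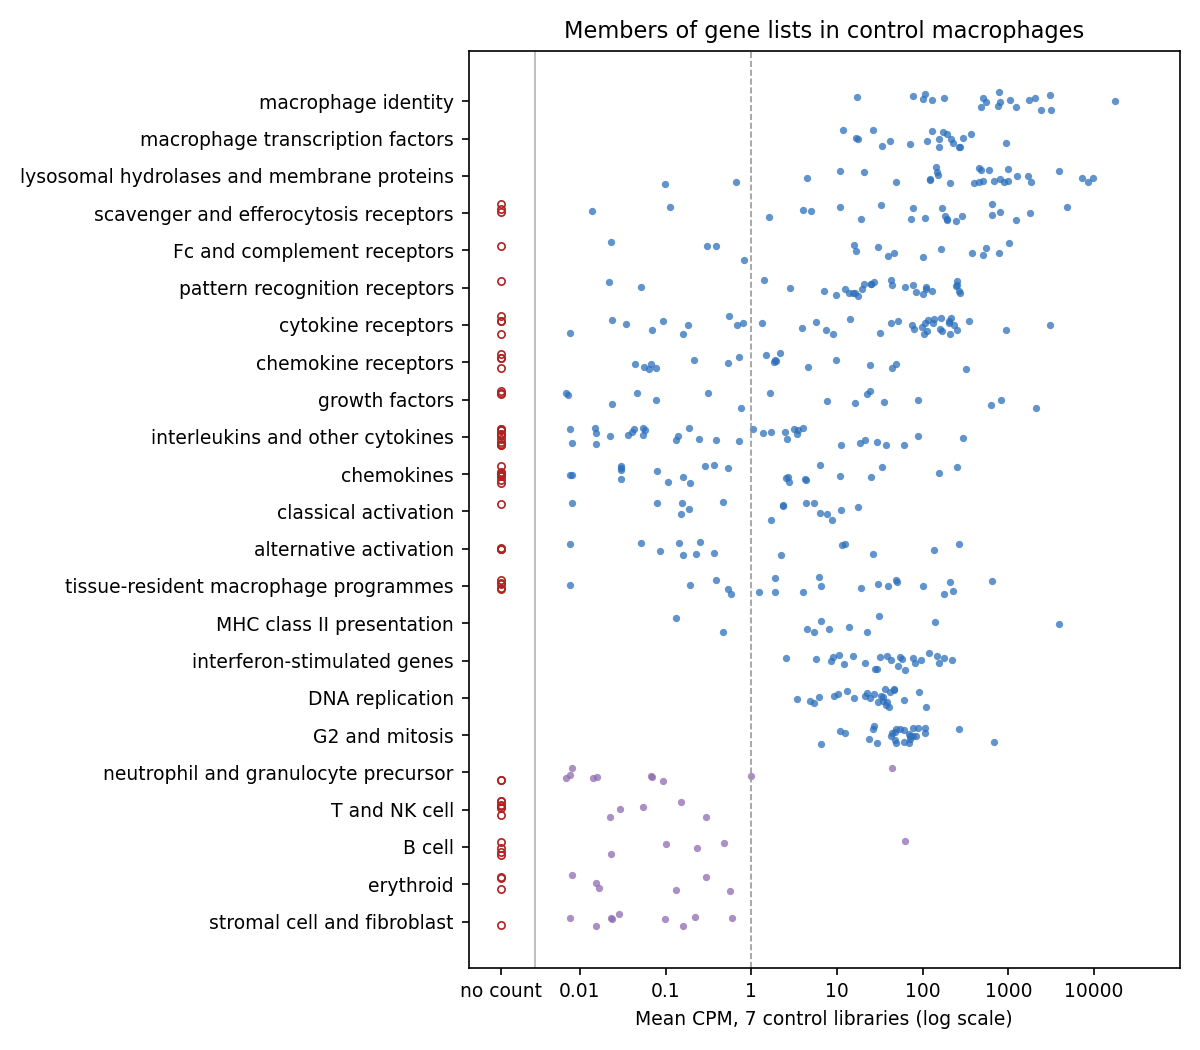
Mean CPM over the 7 control libraries (log axis) of each member of 23 gene lists; each point is 1 gene, red open circles are genes with no count, blue points are macrophage and process lists, purple points are lists of other cell types, and the dashed line is 1 CPM. All members of the identity, transcription factor, interferon-stimulated, replication and mitosis lists lie above 1 CPM, whereas 13 of 48 cytokines and 10 of 34 chemokines had no count.

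By the biotype given in the deposited table, protein-coding genes held 84.5 ± 0.690% of the counts, from 83.4 to 85.2% over the libraries. The class misc_RNA, with 46.8% of its counts in Rn7s2, held 7.62 ± 0.328%. Pseudogenes of all kinds held 3.89 ± 0.380%, and Gm12896 alone made up 40.9% of the processed pseudogene class. Long noncoding RNAs of all kinds held 2.68 ± 0.260%, and Malat1 made up 83.6% of the lincRNA class. Ribosomal RNA, cytosolic and mitochondrial, held 0.490 ± 0.215%, from 0.286 to 0.884%. This share rests on the biotype label. CT010467.2, named like the rRNA gene CT010467.1 (4390 ± 1990 CPM) but typed as a pseudogene, averaged 4553 ± 280 CPM. It is counted with the pseudogenes, and which RNA its reads came from was not tested. Mitochondrially encoded genes held 1.38 ± 0.106%, led by mt-Co1 at 6457 ± 409 CPM. Protein-coding genes whose symbol starts with Rpl, Rps or Rplp and a digit held 1.90 ± 0.0454%. They were picked by symbol alone, as an approximate set of cytosolic ribosomal protein genes.

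Many more biotypes were present at trace level. Ribozyme genes held 0.421 ± 0.0323% of the counts, and unconfirmed transcripts (TEC) 0.315 ± 0.0274%, spread over 673 expressed genes with Gm37376 in first place. Antisense genes held 0.225 ± 0.0152%; whether the counting kept the strand is not stated, so reads of an antisense gene and of the gene it overlaps cannot be told apart. Of 2207 miRNA genes, 104 had a count and 3 exceeded 1 CPM, and the class held 0.00146 ± 0.000343% of counts. Small nucleolar RNA genes held 0.0234 ± 0.00162%, led by Scarna10. All counts of the immunoglobulin constant class came from Ighm. Of 5629 lincRNA genes, 220 exceeded 1 CPM (3.91%), against 50.9% of 21936 protein-coding genes.

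**Figure D3:**
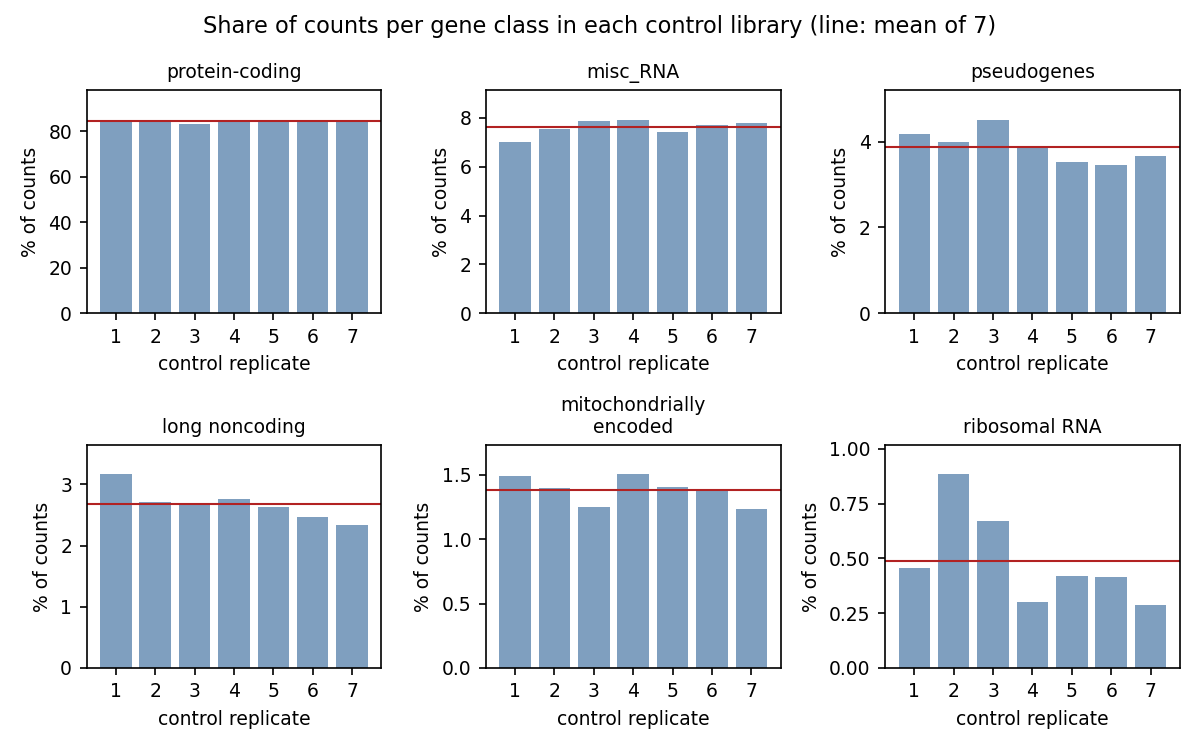
Percent of a library's counts in 6 gene classes, one bar per control replicate (1 to 7), with the mean of 7 as a red line; each panel has its own axis from 0, and the mitochondrially encoded panel includes mitochondrial ribosomal RNA, which the ribosomal RNA panel counts too. Protein-coding shares lie within 83.4 to 85.2%, while ribosomal RNA runs from 0.286% in replicate 7 to 0.884% in replicate 2.

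Most cytokine genes were not expressed. Of 48 interleukins and other cytokines, 17 exceeded 1 CPM, 18 were counted below it, and 13 had no count. The no-count genes included Il12a and Il12b, the subunits of IL-12, the T cell cytokines Ifng, Il17a, Il21 and Il22, and the growth factors Csf2 and Il3. Inflammatory cytokines were close to that level: Il6 had 1 count, Il1a 6 and Il1b 24 counts over the 7 libraries, and Ifnb1 2. Tnf, in contrast, passed 1 CPM in every library, at 9.39, 11.1 and 12.5 CPM and a mean of 11.0 ± 1.24 CPM. The anti-inflammatory Il10 averaged 2.47 ± 0.500 CPM and the IL-1 receptor antagonist Il1rn 3.50 ± 0.509 CPM. Per kb, Tgfb1, an anti-inflammatory and fibrogenic cytokine, held the first place of the list at 115 CPM per kb. Mif followed at 101 and Tnfsf12, the gene for TWEAK, at 61.2 CPM per kb. Tgfb1 averaged 295 ± 4.99 CPM with 289.7 to 302 CPM over the libraries. Csf1, the gene of M-CSF itself, averaged 1.36 ± 0.0825 CPM, and Il34, which encodes the other ligand of its receptor, had no count.

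Of 20 growth factor genes, 10 exceeded 1 CPM, near the share of 50.9% among all protein-coding genes. Grn, the progranulin precursor that serves lysosomes, averaged 2108 ± 110.4 CPM, Gas6, the bridge between dying cells and TAM receptors, 812 ± 36.4 CPM, and Igf1, insulin-like growth factor 1, 629 ± 32.7 CPM. The angiogenic Vegfa averaged 87.0 ± 4.46 CPM. Tgfa and Bdnf had no count, and the EGF family members Areg, Ereg and Hbegf had 1, 1 and 3 counts.

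Few chemokines were expressed: 11 of 34 exceeded 1 CPM and 10 had no count. Ccl9 stood at 229.9, 259 and 266 CPM and averaged 252 ± 13.1 CPM, and the membrane-bound Cxcl16 averaged 157 ± 5.32 CPM. Ccl3 and Ccl6 averaged 33.1 ± 1.04 and 24.8 ± 1.15 CPM. Per kb these 4 lay at 83.8, 58.2, 43.2 and 17.2 CPM. The monocyte attractant Ccl2 averaged 0.532 ± 0.179 CPM, the interferon-induced Cxcl10 and Cxcl9 4.36 ± 1.43 and 0.0793 ± 0.0652 CPM, and Ccl17 had no count.

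Of 44 cytokine receptor genes, 30 exceeded 1 CPM and 18 exceeded 100 CPM. Besides Csf1r these included the TNF receptor Tnfrsf1b at 943 ± 28.1 CPM, the GM-CSF receptor chains Csf2ra and Csf2rb at 351 ± 7.52 and 229 ± 3.55 CPM, and Il6st, the gp130 chain, at 252 ± 3.78 CPM. Both interferon gamma receptor chains were present, Ifngr1 at 157 ± 8.71 and Ifngr2 at 115 ± 4.16 CPM, as were the type I interferon receptor chains Ifnar1 and Ifnar2 at 113 ± 5.59 and 99.4 ± 6.70 CPM. In the receptors for IL-10 and IL-4, Il10ra averaged 205 ± 6.37 and Il4ra 136 ± 8.20 CPM. The IL-1 receptor Il1r1 averaged 0.552 ± 0.192 CPM, and Il2ra, Il13ra2, Il18r1 and Ifnlr1 had no count.

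Of 23 chemokine receptor genes, 11 exceeded 1 CPM, near the share of 50.9% among all protein-coding genes. Cxcr4, the receptor for Cxcl12, averaged 321 ± 7.48 CPM with 309 to 329 over the libraries, and it was the single member of 23 above 100 CPM. Cx3cr1, the fractalkine receptor, averaged 48.5 ± 3.99 CPM and Ccr2 the value given above. Ccr1 averaged 1.92 ± 0.514 CPM, and Ccr7, Ccr8, Ackr1 and Ackr3 had no count.

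Pattern recognition receptors were expressed before any stimulus. Of 31 genes, 28 exceeded 1 CPM. Among Toll-like receptors, those that sense RNA in endosomes, Tlr13, Tlr7 and Tlr8, averaged 276 ± 8.27, 253 ± 17.7 and 248 ± 8.82 CPM. Tlr4, the lipopolysaccharide receptor, averaged 109.7 ± 7.32 CPM, its co-receptor Cd14 128 ± 7.61 CPM, and its partner Ly96 7.09 ± 0.549 CPM. Per kb, Tlr8, Tlr13 and Tlr7 stood at 72.3, 67.9 and 64.9 CPM, and Tlr4 at 26.9; with the median transcript length they stood at 506, 125, 131 and 87.3. The C-type lectins Clec4d and Mrc1 averaged 244 ± 9.96 and 265 ± 36.5 CPM. Tlr5, the flagellin receptor, averaged 1.39 ± 0.140 CPM, Tlr11 had 3 counts and Tlr12 none. The cytosolic sensors Sting1, Cgas and Nlrp3 were counted in every library, at 43.0 ± 1.82, 16.2 ± 1.32 and 44.1 ± 3.06 CPM.

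Receptors for antibodies, complement and dying cells were expressed broadly, with 12 of 17 Fc and complement receptors above 1 CPM. The common gamma chain Fcer1g stood at 746 CPM per kb, the low-affinity receptor Fcgr3 at 280.2, and the anaphylatoxin receptor C3ar1 at 238. Itgb2, the partner chain of Itgam, averaged 772 ± 8.34 CPM. The inhibitory Fcgr2b averaged 39.8 ± 2.91 CPM and Fcgr4 16.5 ± 2.16 CPM. Fcer1a, a mast cell chain, had no count. Of 26 scavenger and efferocytosis receptors, 21 exceeded 1 CPM, among them Stab1 at 1800.04 ± 151, Cd36 at 649 ± 27.5 and Siglec1 at 641 ± 62.3 CPM. Of the TAM receptors, which clear dying cells, Mertk averaged 105 ± 9.70 CPM, Axl 32.2 ± 3.18 CPM and Tyro3 had 2 counts. The phosphatidylserine receptors Timd4, Havcr1 and Adgrb1 had no count. Genes of the Fcgr family have close relatives, and the division of shared reads between them is uncertain.

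Of the genes of classical and alternative activation, 2 and 5 exceeded 10 CPM, as did 8390 of 21936 protein-coding genes. Nos2, the inducible nitric oxide synthase, had 19 counts over the 7 libraries (0.156 CPM), Ptgs2 averaged 0.463 ± 0.211 CPM and Cd86 2.31 ± 0.339 CPM. Acod1, which makes itaconate, averaged 8.65 ± 1.06 CPM and Cd40 7.69 ± 0.843 CPM. On the alternative side, Arg1 had 30 counts, Chil3 19, and Retnla, Chil4 and Ccl17 none. The list also holds Mrc1 and Il4ra, whose levels are given above, and Egr2 at 26.2 ± 2.10 CPM. Of 18 classical symbols, 17 were matched and 10 exceeded 1 CPM, and of 18 alternative genes 6 did. Among all protein-coding genes the share was 50.9%, so the classical list was not low at this level.

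Markers of tissue-resident macrophages were mixed. Clec4f and Timd4 of Kupffer cells, Gata6 of peritoneal macrophages, Lyve1 and Car4 had no count, and Sall1 of microglia had 1 count. Cd5l, a secreted scavenger protein of tissue macrophages, averaged 226 ± 19.1 CPM, the folate receptor Folr2 178 ± 10.5 CPM and Fcrls 102 ± 9.91 CPM. The alveolar markers Marco and Siglecf averaged 3.97 ± 1.06 and 1.89 ± 0.382 CPM. Of 11 genes of antigen presentation by MHC class II, 9 exceeded 1 CPM. Cd74, the invariant chain, averaged 30.5 ± 1.20 CPM, H2-Ab1 and H2-Aa 7.98 ± 0.592 and 6.42 ± 0.719 CPM, and the transactivator Ciita 5.32 ± 0.896 CPM. The class I heavy chain H2-D1 and its partner B2m stood at 1221 and 1479 CPM per kb (4574 and 1479 with the median transcript length).

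Interferon-stimulated genes were counted without added interferon. All 25 exceeded 1 CPM and 5 exceeded 100 CPM. Oas3 and Oasl2, of the 2',5'-oligoadenylate synthetase family, averaged 219 ± 29.6 and 175 ± 24.1 CPM, and Stat2, which carries interferon signals, 149 ± 13.0 CPM. The regulator Irf7 averaged 95.5 ± 17.5 CPM, Isg15 15.6 ± 2.80 CPM and Mx1 12.1 ± 1.95 CPM. Reads of the Oas, Ifit, Gbp and Mx families may be divided between relatives, so single members are uncertain. Of 24 immediate early genes, 20 exceeded 1 CPM. Klf6 averaged 269 ± 8.24 CPM, Atf3 138 ± 4.36 CPM, Zfp36, which destabilises cytokine mRNAs, 165 ± 9.42 CPM and Fos 50.6 ± 4.70 CPM, while Nr4a3 averaged 0.190 ± 0.149 and Fosl1 0.0637 ± 0.0514 CPM.

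Metabolic lists were present as a whole. Of 27 matched genes of glycolysis and hypoxia 26 exceeded 1 CPM. Per kb, Pkm stood at 902, Aldoa at 648 and Gapdh at 85.1 CPM (2954, 1124 and 495 with the median transcript length), where near-identical pseudogenes can take part of the reads of Gapdh. The hypoxia targets Car9 and Adm lay at 3.08 ± 0.592 CPM and at 3 counts in all. Of 23 genes of cholesterol synthesis and uptake, 22 exceeded 1 CPM. The regulator Srebf2 averaged 234 ± 7.40 CPM and Insig1, which holds back the regulator, 99.8 ± 3.56 CPM.

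The cultures carried the transcripts of dividing cells. All 26 genes of DNA replication and all 28 of G2 and mitosis exceeded 1 CPM, in lists chosen with earlier results known. Mki67, the proliferation antigen of cycling cells, lay at 656, 685 and 719 CPM and averaged 686 ± 21.4 CPM, and Top2a, topoisomerase II alpha, averaged 264 ± 4.33 CPM. The sliding clamp Pcna averaged 108 ± 5.68 CPM, the ribonucleotide reductase subunits Rrm1 and Rrm2 90.1 ± 4.71 and 40.2 ± 1.82 CPM, and the helicase subunits Mcm6 and Mcm3 60.5 ± 4.43 and 46.7 ± 1.65 CPM. The mitotic genes varied little: their summed level ran from 2329 to 2414 CPM, a range of 3.62% of its mean, and that of the replication genes from 798 to 910.4 CPM, or 13.4%.

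Cyclins and their inhibitors were expressed side by side, with 25 of 29 regulators above 1 CPM. Ccna2, Ccnb2 and Ccnb1 averaged 85.2 ± 3.83, 57.8 ± 3.49 and 50.3 ± 2.35 CPM, and the kinases Cdk4 and Cdk6 79.4 ± 3.28 and 77.2 ± 2.70 CPM. Cdkn1a, the p21 inhibitor, stood at 153, 163 and 174 CPM and averaged 163 ± 7.94 CPM, which was the first place of its list by CPM and, at 78.4, by CPM per kb. Among D-type cyclins, Ccnd3 averaged 57.2 ± 3.71 and Ccnd1 13.7 ± 2.62 CPM, whereas Ccnd2 averaged 0.233 ± 0.103 CPM. Cdkn2a averaged 0.960 ± 0.208 CPM, Ccna1 had 1 count and Ccnb3 none.

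Genes of the Y chromosome were counted in every library. Ddx3y lay at 41.7 to 49.1 CPM, Kdm5d at 38.3 to 40.4, Eif2s3y at 35.5 to 41.2 and Uty at 32.1 to 39.1 CPM. Xist, the RNA that silences an X chromosome, had 5 counts over the 7 libraries.

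Spread between the control libraries was measured as a biological coefficient of variation, the part of the variation of CPM that is left after counting variance is subtracted. Over the 8678 genes averaging 10 CPM or more its median was 3.11%, 73.9% of genes were below 5%, 321 were at 10% or more and 31 at 25% or more. The last count rests on the minimum and the estimator: it was 369 over genes of at least 1 CPM, 9 over genes of at least 50 CPM, and 13 with edgeR's tagwise dispersion. In 1740 genes the estimate was 0, which means that variation beyond counting was not resolved, not that it was absent. Among those above 50 CPM were Plpbp at 54.4 to 55.1 CPM, Tbk1, a kinase of innate signalling, at 84.7 to 86.6 CPM, Dusp3 at 248 to 255 CPM and Acox3 at 213 to 218 CPM. Their spread was below what counting alone gives, so genes at 0 cannot be ranked among themselves. Fth1 varied by 0.833%, Csf1r by 3.02% and Lyz2 by 2.87%. The share of genes at 25% or more was 0.203% among 8390 protein-coding genes, 4.23% among 142 pseudogenes and 20% among 25 genes of small and structural RNAs.

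**Figure D4:**
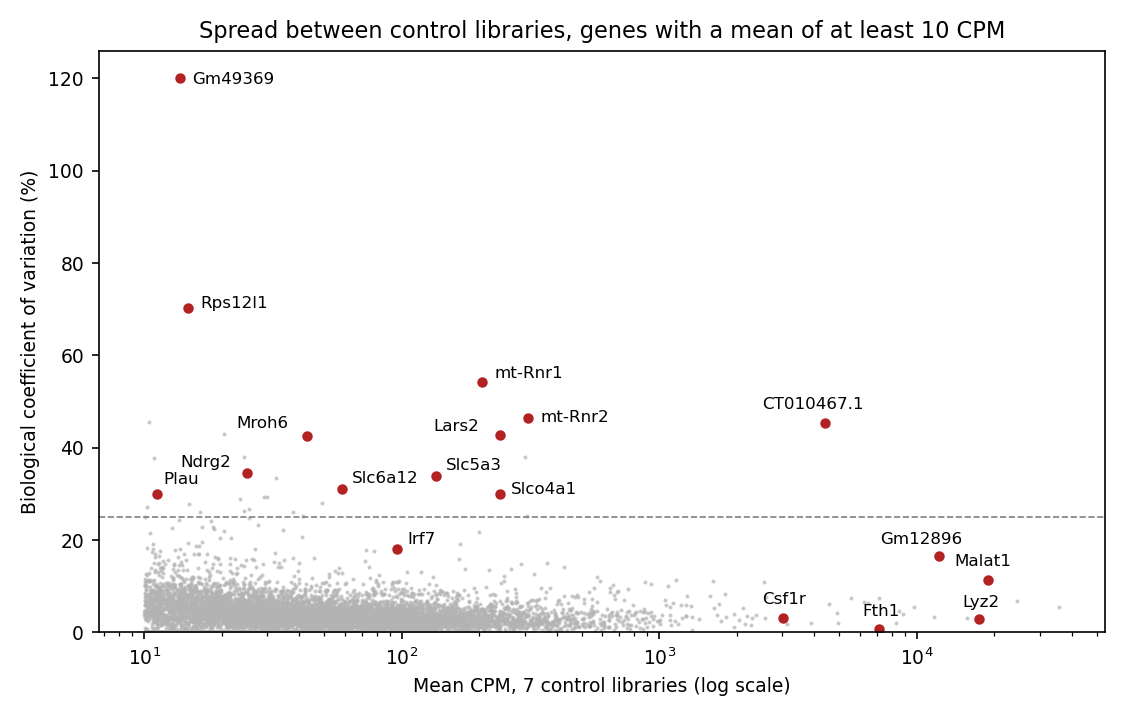
Biological coefficient of variation (percent) between the 7 control libraries against mean CPM (log axis) for genes averaging 10 CPM or more; each point is 1 gene, named genes are in red and the dashed line is 25%. Most genes lie under 5%, and Gm49369, at 120%, lies highest.

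Many of the genes with most spread share sequence with another gene. Of the 25 gene IDs with a named symbol and the largest values, 15, or 60%, shared at least 20% of their 50-base words with another gene in GENCODE M21. Among 8671 genes averaging 10 CPM or more, 1035 did, or 11.9%. The groups were not matched by biotype. The 25 include processed pseudogenes such as Rps12l1 and Rpl27-ps3, whereas 8390 of the 8678 genes at this level are protein-coding. Each was then summed with the gene sharing most of its words, an alternative chosen after the spread was seen. In 9 of the 15 the sum varied less than both of its members, and in the other 6 it varied more than at least 1 of them. No sums with unrelated genes were made, so these counts have no baseline. Both IDs of Zc3h11a and both of Nnt are among the 15, so neither the 15 nor the sums are all independent. For Zc3h11a, a zinc finger gene that stands on 2 gene IDs, the IDs averaged 20.4 ± 8.84 and 41.2 ± 10.5 CPM and varied by 43.0 and 25.2%, and their sum by 5.36%. Fam177a2 varied by 37.8%, Fam177a by 6.39% and their sum by 0.892%. Nnt, the mitochondrial transhydrogenase that is partly deleted in C57BL/6J, varied by 36.3 and 24.2% on its 2 IDs, and their sum by 2.77%. Entpd4 and Entpd4b varied by 23.4 and 22.1%, and their sum by 4.84%. The sum of mt-Nd3 and Gm28438 still varied by 14.7%, and that of the 2 Rmrp IDs by 10.0%. For Cmc4 with Mtcp1 it varied by 20.8%, and for Hspa1b with Hspa1a by 20.1%. Where a low gene was added to a more abundant one, as for the pseudogene Rps12l1 (0 to 30.4 CPM, 70.4%) and Rps12 (5.47%), the sum had to follow the abundant gene, and at 6.54% it varied more than Rps12 alone. Gm49369, chosen after its value was seen because it had the largest value of all, lay between 0 and 40.5 CPM and shares 74.4% of its words with Ctsd.

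Ribosomal RNA genes were among the most variable. CT010467.1, a cytosolic rRNA gene, stood at 3706, 8021, 6172, 2556, 3758, 3813 and 2706 CPM in replicates 1 to 7, so that replicates 2 and 3 were highest and 4 and 7 lowest. Lars2, which encodes the mitochondrial leucyl-tRNA synthetase, stood at 193, 430.5, 336, 155, 203, 218 and 154 CPM, with the same 2 libraries highest and the same 2 lowest. Its transcript shared 0.196% of its 50-base words with other genes, and what links its counts to the rRNA level was not tested. The mitochondrial rRNA genes mt-Rnr1 and mt-Rnr2 had a different pattern, with replicates 1 and 2 highest and replicate 7 lowest. mt-Rnr1 ran from 64.9 to 378 CPM and mt-Rnr2 from 114 to 499 CPM. Because ribosomal RNA was removed from the samples before sequencing, these levels are what was left after removal.

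Several variable genes of different function had 1 order of the libraries in common. Slc5a3, which takes up the osmolyte myo-inositol, stood at 201, 133, 123, 191, 129, 91.0 and 79.0 CPM in replicates 1 to 7. Slc6a12, which takes up the osmolyte betaine, stood at 85.9, 59.1, 54.5, 78.8, 54.7, 38.1 and 38.6 CPM. In both, replicates 1 and 4 were highest and replicates 6 and 7 lowest. The organic anion transporter gene Slco4a1 (152 to 339 CPM), Ndrg2 (15.6 to 36.8 CPM) and the heat shock gene Hspa1b (13.1 to 25.3 CPM) had the same order. It was found in 293 of 8678 genes, or 3.38%, and in 36 of the 321 that varied by 10% or more, or 11.2%. A list of 9 genes known to respond to tonicity was written after these values had been seen, and 6 of its 9 members had it, so this count supports nothing by itself. The members without the order were Slc6a6, the taurine transporter (1921 to 1995 CPM), Akr1b3, aldose reductase (96.0 to 103 CPM), and Hspa4l (29.4 to 35.6 CPM). Nfat5, the transcription factor of the tonicity response, ran from 133 to 168 CPM and had it. Counts of Slc5a3 can include reads of Mrps6, a gene with which it shares 1.01% of its words.

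The promoters of the tonicity genes were searched for TGGAAA, the core of the tonicity-responsive element. The table held 11 promoters of 7 of the genes, and 1 held the motif (18.6% of all 32851 promoters do), as did TGGAAAA, which contains it (5.93%). The promoter with the match is that of Slc6a12 (GRCm38.p6, chr6:121342324-121342573, plus strand), shown with the match in capitals because its gene was among the most variable.
Slc6a12 promoter: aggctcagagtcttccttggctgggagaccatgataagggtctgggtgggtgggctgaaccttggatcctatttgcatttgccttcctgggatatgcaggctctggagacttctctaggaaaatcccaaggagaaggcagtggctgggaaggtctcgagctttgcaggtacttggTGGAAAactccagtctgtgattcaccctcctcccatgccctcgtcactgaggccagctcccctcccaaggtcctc

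The reverse order, with replicates 6 and 7 highest and 1 and 4 lowest, was found in 436 of 8678 genes, or 5.02%. Of the 321 genes that varied by 10% or more, 39 had it, or 12.1%. This reverse order held for 9 of 27 lysosomal genes of at least 10 CPM, 6 of 18 scavenger and efferocytosis receptors and 5 of 20 identity genes. Another 2 identity genes had the order with replicates 1 and 4 highest. These 3 lists had the most members with replicates 6 and 7 highest, and the other lists had 0 to 4. The lists differ in size, so the counts do not single out these 3. The order also held for 3 of 10 tissue-resident genes and 3 of 12 Fc and complement receptors of at least 10 CPM. Ctsd ran from 6407 CPM in replicate 1 to 8024 in replicate 7, and Mrc1 from 209.9 to 319 in replicates 1 and 6. The complement genes C1qa and C1qc, chosen after their values were seen, ran from 274 to 392 and 785 to 1089.9 CPM. Plau, the urokinase gene, which had the largest variation of this order, ran from 5.55 to 15.8 CPM. On the first principal component, which held 39.7% of the variance, replicate 1 lay at 8.07 and replicate 4 at 6.24, replicate 6 at -4.93 and replicate 7 at -8.14. This component leans on a few gene IDs. Gm49369, with 0 CPM in replicates 1, 2 and 4, had by far the largest loading, at -6.38, followed by Rps12l1 at -2.49. Replicates 6 and 7 were also the 2 deepest libraries, at 21047654 and 20125139 counts, replicate 1 was the shallowest at 14912123, and replicate 4 had 18244169. Replicate 1 also had the highest share of long noncoding RNA, at 3.16%, and replicate 7 the lowest, at 2.34%. The part of depth or RNA composition in these orders was not tested.

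Interferon-stimulated genes had the highest median variation of the 24 lists, at 11.6%. Their sum stood at 1495, 1614, 1588, 1426, 1568, 1323 and 1819 CPM in replicates 1 to 7. Replicate 7 was highest and replicate 6 lowest, a ratio of 1.38. Irf7 stood at 131 CPM in replicate 7 and at 85.0, 102, 97.8, 81.4, 89.7 and 81.3 CPM in replicates 1 to 6. Ifit1 was lowest in replicate 6, at 22.0 CPM, but reached 37.3 CPM in replicate 1 and 32.8 in replicate 7, so the genes of the list did not all follow 1 pattern. The median variation was 2.62% for mitotic genes and 4.46% for macrophage identity genes.

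**Figure D5:**
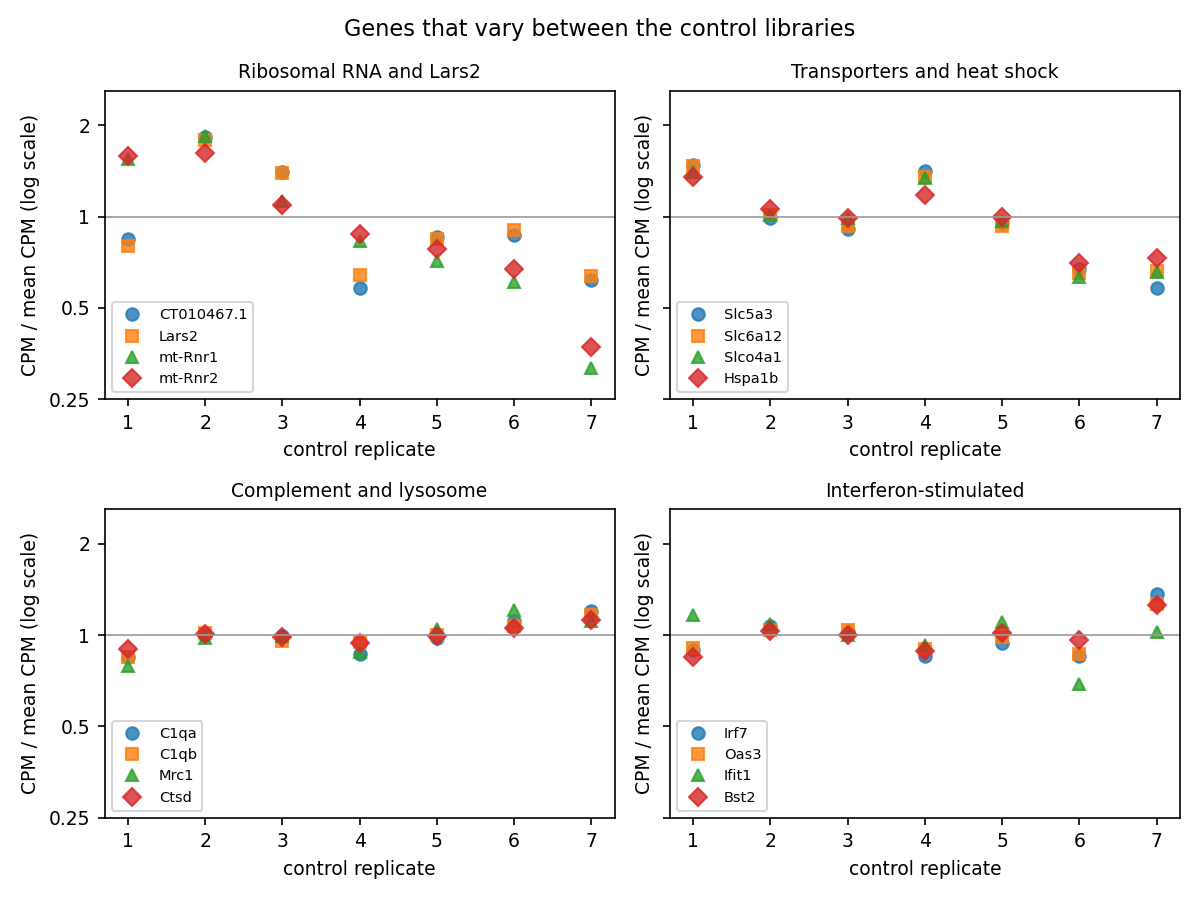
CPM of 16 genes in each control replicate (1 to 7) divided by the gene's mean over the 7 libraries (log axis, line at 1), in 4 panels by group. CT010467.1 and Lars2 lie highest in replicates 2 and 3, the transporter genes in replicates 1 and 4, the complement and lysosomal genes lie within a narrower band, and Irf7 is highest in replicate 7.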

How the data were processed

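Total RNA of the 7 control libraries had been depleted of ribosomal RNA and read as paired 150-base reads, per the labels' protocols. The authors deposited a table of estimated counts per gene with gene IDs, symbols and biotypes, and DRAGEN is named in the submitters' processing notes, without a version. For the genome build, the annotation and the strand setting, no label or file header gives a value. The table has 55774 rows, and of 168 gene IDs on several rows 1 row was kept, which left 55487. The values were rounded to integers, then scaled to CPM with TMM factors over the 7 libraries (edgeR 4.0.16, R 4.3.3). The libraries held 14912123 to 21047654 counts. No groups were compared; pairs of libraries were compared by a chi-square statistic per gene, and single libraries by Dixon's criterion. The deposited table of the authors' own comparison was not used here.

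The biological coefficient of variation is the square root of the squared CV of CPM minus the reciprocal of the mean count, set to 0 where negative; its calculation was tested on simulated data. Transcript lengths and shared 50-base words came from GENCODE M21 (GRCm38), and promoters from RefSeq (GRCm38.p6). Where a symbol stands on 2 gene IDs, the ID with the higher mean is given. Gene lists held 670 symbols, of which 668 were matched. The members and lists were chosen with earlier results of these data known. Genes named by rule were the 4 markers, the first 20 by CPM and by CPM per kb, up to 6 members of each list with the highest CPM, members with no count or under 0.1 CPM, the 25 most and 10 least variable genes, and the largest gene of each biotype. Other genes named were taken for their known role after their values were seen. Alternatives were other scaling factors, library size alone, other minimums, unrounded counts, leaving out mitochondrial and ribosomal RNA genes, leaving out each library, edgeR's dispersion and another transcript length. Some genes and 1 sequence are not reported here.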

Additional observations from a re-analysis of the deposited data

Results flagged for a closer look

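Over 14 library measures and 200 genes named in the report, 8 genes had 1 library far from the other 6, by Dixon's criterion on the gap to the nearest library; that is 3.74%, where chance flags about 1 in 20. In replicate 7, Gpnmb stood at 12431 CPM against 11168 to 11697 in the others, Irf7 at 130.7 against 81.3 to 102 CPM, and Pcna at 120.1 against 103 to 109 CPM. Replicate 6 was highest for Fos, at 60.9 against 46.7 to 50.4 CPM, and lowest for Pkm, at 2029 against 2201 to 2288 CPM. Replicate 1 was lowest for Rn7s1, at 21160.2 against 24102 to 26013 CPM, and for Sting1, at 39.2 against 42.7 to 44.7 CPM. Ctsw, with few counts, was highest in replicate 3, at 1.47 against 0.432 to 0.664 CPM.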

How the results depend on the processing

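The number of genes with a biological coefficient of variation of 25% or more was 31 over genes averaging 10 CPM or more. It was 369 with the minimum lowered to 1 CPM, 9 with it raised to 50 CPM, and 13 with edgeR's tagwise dispersion. The median of 3.11% was 3.59% with the minimum at 1 CPM, 2.88% with it at 50 CPM, 4.92% without subtraction of counting variance and 4.12% with edgeR's dispersion, and 2.77 to 3.30% when each library was left out in turn. The minimums of 1, 10 and 50 CPM let in 13414, 8678 and 3738 genes, and the counts at 25% or more did not fall in proportion. Why they depend on the minimum, and why edgeR's values differ, was not tested. The numbers of expressed and uncounted genes stayed within a set ratio of their main values under all the alternatives run for them. The 5 shares of counts moved by less than their SD between libraries. Leaving out 1 of 7 libraries can hardly move a mean share by that much, so those alternatives say little about the shares. Low counts limit the genes listed with a few counts or none, and a count of 0 over the 7 libraries allows up to 0.0232 CPM. No paired analysis was possible because 1 group alone, the control libraries, was described and nothing was compared.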
